A study of Homo sapiens with 24 samples.

Results

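The genes of the transforming growth factor-β (TGF-β) ligands and their receptors were examined in cultures of sensory neurons differentiated from H9WAO9 human pluripotent stem cells. The 10 genes were chosen by symbol from the 36468 entries of the count table: the ligand genes TGFB1, TGFB2 and TGFB3, the receptor genes TGFBR1, TGFBR2, TGFBR3, ACVRL1, ENG and ACVR1B, and LRRC32. Each symbol had 1 entry in the table, and all 10 passed the filter of at least 10 counts over the 24 libraries. The cultures passed through vagal neural crest cells and spheroids to mature neurons, and 6 batches of differentiation were each divided over 4 groups. One group received 2 ng/ml TGF-β for 5 days, one received 10 ng/ml IL-4 together with 3 ng/ml IL-13 for 5 days, and the vehicle group received only the solvent, bovine serum albumin in PBS. The last group is labelled IL-6, and its dose and duration are not given in the sources used here. Every library comes from H9WAO9 cells, a single line of wild-type genotype, so the 6 batches are repeats of the differentiation and not different donors. The p-values rest on how treatment differences vary from batch to batch, since the level of each batch is fitted. The libraries were made from whole cultures in which neurons were a minority of the cells by the study's flow cytometry, so a level here belongs to the mixed culture. In such bulk RNA, fewer cells of a type and less RNA per cell cannot be told apart.

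TGF-β ligands are secreted in a latent form, held by their own propeptide and by binding partners, and act on cells once released. The active dimer is bound by the type II receptor TGFBR2, which phosphorylates the type I receptor TGFBR1 (also called ALK5), and TGFBR1 phosphorylates SMAD2 and SMAD3, which enter the nucleus with SMAD4. TGFBR3, or betaglycan, presents ligand to TGFBR2 and is most important for TGFB2, and endoglin (ENG) and ACVRL1 (ALK1) form a second receptor branch best known from endothelial cells. ACVR1B (ALK4) is the type I receptor for activins and Nodal, and LRRC32 (GARP) anchors latent TGF-β at the cell surface. In peripheral nerve, TGF-β is known from repair after injury and from exchanges between neurons, Schwann cells and fibroblasts. The added TGF-β was a protein, so the reads counted on TGFB1, TGFB2 and TGFB3 come from the RNA of the cultures.

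The promoter sequences of the ligand genes, and of the receptor genes TGFBR2 and TGFBR3, are shown because the results below concern these genes. Each line gives the 100 bases before an annotated transcription start, 5′ to 3′ on the strand of the gene, from RefSeq on GRCh38.p14. Capitals mark GGGCGG or CCGCCC (the GC box bound by SP1), TATAAA or TTTATA (the TATA box) and CAGAC or GTCTG (a SMAD binding element). TGFB1 lies on the minus strand at chr19:41353923-41354022, TGFB2 on the plus strand at chr1:218345236-218345335, and the 2 TGFB3 windows on the minus strand at chr14:75983012-75983111 and chr14:75981996-75982095. The 2 TGFBR2 windows lie on the plus strand at chr3:30606256-30606355 and chr3:30606501-30606600, and TGFBR3 on the minus strand at chr1:91886152-91886251.
TGFB1: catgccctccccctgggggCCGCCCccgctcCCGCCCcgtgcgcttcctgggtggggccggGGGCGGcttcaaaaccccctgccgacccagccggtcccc
TGFB2: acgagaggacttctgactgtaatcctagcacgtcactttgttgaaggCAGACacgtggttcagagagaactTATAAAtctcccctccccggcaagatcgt
TGFB3 outer start: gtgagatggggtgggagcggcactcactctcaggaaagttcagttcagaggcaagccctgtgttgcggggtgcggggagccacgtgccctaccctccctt
TGFB3 inner start: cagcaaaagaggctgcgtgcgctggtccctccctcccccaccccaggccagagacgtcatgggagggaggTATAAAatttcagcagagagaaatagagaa
TGFBR2 outer start: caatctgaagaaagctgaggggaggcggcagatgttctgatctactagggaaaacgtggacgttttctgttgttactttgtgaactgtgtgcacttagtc
TGFBR2 inner start: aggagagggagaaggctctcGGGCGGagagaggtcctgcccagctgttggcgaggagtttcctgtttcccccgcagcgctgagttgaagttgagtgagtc
TGFBR3: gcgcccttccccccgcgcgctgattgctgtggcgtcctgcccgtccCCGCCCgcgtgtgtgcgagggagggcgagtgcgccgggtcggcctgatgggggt

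The ligand promoters differed in these letters. The TGFB1 window held 3 GC boxes and no TATAAA, whereas TGFB2 held TATAAA starting 29 bases before the start, with a CAGAC upstream of it. The inner start of TGFB3 had TATAAA starting 30 bases before it, and its outer start held none of the 3 motifs in these 100 bases. Over the full 300-base windows of RefSeq, 8 of the 10 genes had an entry, with 18 windows between them and none for ACVRL1 and LRRC32. A GC box was found in 8 of the 18 windows, a TATA box in 2 and a SMAD element in 7, beside 45.0%, 11.5% and 45.3% of all 35116 promoter windows. The motifs were searched on both strands, and the 3 motifs share no overlapping letters in the windows printed. A match is a description of the letters in the window.

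Total counts per library were between 33342682 and 39817784, with a median of 35775126. Once group means were removed, 36 pairs of libraries from a shared batch had a median r of 0.564, 180 pairs from different batches had one of -0.133, and 20 of 24 libraries were closest to their own batch. The vehicle library of batch 2 stood apart. Its mean correlation with the other libraries of batch 2 was 0.035, against 0.427 with those of batch 4, and the vehicle library of batch 4 was in turn closest to batch 2 (0.401). Both 5-day cytokine treatments of batch 4 gave libraries that were closest to batch 3 (0.559 and 0.519). These 2 vehicle libraries are used as labelled. Log2 fold changes of the 10 genes against vehicle are also given without the batch 2 vehicle library where they move by over 1.5 times. Fold changes of marker and pathway genes are given only with that library in the fit. All 10 neuron markers (among them TUBB3, STMN2 and PRPH) had a mean count of at least 10, with a summed level of 1521 to 11199 CPM (the count scaled to library size, with TMM factors). The 10 fibroblast and mesenchymal markers were also high, at 2717 to 13499 CPM in sum. Endothelial markers summed to 26.8 to 175 CPM, most of it from KDR, with mean counts per library of 15.04 for PECAM1, 14.96 for CDH5 and 10.8 for VWF. Of the 6 immune markers AIF1 was at 0 in every library and CD14 and ITGAM had mean counts under 10, but PTPRC, CD68 and CSF1R had mean counts of 514, 447 and 161. Of the 4 pluripotency markers POU5F1 and NANOG had mean counts under 10, and DPPA4 and LIN28A had 713 and 68.96.

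All 10 genes were detected in every library, at very different levels. To compare genes, CPM was divided by the length of the joined exons in kilobases. In vehicle cultures ACVR1B, the activin receptor, stood at 16.3 ± 3.61 CPM per kb and TGFBR1 at 15.9 ± 2.35 CPM per kb (SD, n = 6 batches each). The ligand genes followed, with 13.1 ± 9.58 CPM per kb for TGFB3, 10.4 ± 3.33 for TGFB2 and 8.32 ± 4.04 for TGFB1 (SD, n = 6 each). ENG had 8.12 ± 4.74 CPM per kb, and TGFBR2, LRRC32 and TGFBR3 had 3.32 ± 0.916, 1.76 ± 0.668 and 1.47 ± 0.893 (SD, n = 6 each). ACVRL1 was lowest, at 0.0921 ± 0.0734 CPM per kb (SD, n = 6), and had between 2 and 37 counts per library over the 24 libraries. Several neighbours in this order could not be separated by their spread. ACVR1B exceeded TGFBR1 in 4 of 6 vehicle libraries, TGFB3 exceeded TGFB2 in 3 of 6, TGFB1 exceeded ENG in 2 of 6 and LRRC32 exceeded TGFBR3 in 3 of 6. TGFB2 was above TGFB1 in 6 of 6 vehicle libraries, and TGFBR3 was above ACVRL1 in 24 of 24 libraries. With the length of the longest transcript in place of the joined exons, TGFB3 moved above TGFBR1 in the order of means (19.99 against 19.6 CPM per kb), ENG above TGFB1 (10.2 against 9.77 CPM per kb) and TGFBR3 above LRRC32 (1.96 against 1.82 CPM per kb). On that scale TGFB3 exceeded TGFBR1 in 1 of 6 vehicle libraries.

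The signalling pair was unequal: TGFBR1 exceeded TGFBR2 per length in each group, by 2.60 to 7.58 times in the vehicle libraries and by 3.78 to 17.7 times under TGF-β. Differences between batches were larger than those between treatments for each of the 10 genes. Batch accounted for between 54.7% (TGFB1) and 87.0% (ACVR1B) of the variance of log2 CPM, and treatment for between 0.888% (ACVR1B) and 25.3% (TGFB1). Batch 1 stood apart for several members. Its mean TGFB3 level was 152 CPM, against 42.9 to 62.8 CPM in the other batches, and its mean TGFBR3 level was 21.1 CPM, against 4.39 to 11.9 CPM. ACVR1B, in contrast, averaged 63.0 CPM in batch 1 and 88.2 to 105 CPM in the others. The neuron markers summed to 1521 to 2599 CPM in the batch 1 libraries and to 3262 to 11199 CPM in the others. The part of the cell mixture in these batch differences was not tested.

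None of the 10 genes was called under TGF-β against vehicle by edgeR (adjusted p under 0.05), where 0.347% of the 29377 entries tested were called. At an unadjusted p under 0.05 there were 4 of the 10, beside 7.29% of all entries, and DESeq2 called 2 of the 10, beside 1.72% of all entries. Those 2 were TGFBR2 and TGFBR3, both lower. The median log2 fold change of the 10 genes was 0.06, beside -0.01 over all entries. Under IL-4+IL-13 against vehicle none of the 10 was called by edgeR, beside 0.633% of all entries, 2 were at an unadjusted p under 0.05, beside 9.1%, and DESeq2 called 0, beside 1.95%. Under IL-6 against vehicle edgeR called 0 of the 10 and 0% of all entries, while 1400 entries (4.77%) were at an unadjusted p under 0.05 and 132 (0.449%) were called by DESeq2. Of the 10 genes, 1 was at an unadjusted p under 0.05 there, TGFBR1, and DESeq2 called 0. TGF-β against IL-4+IL-13 gave 1 called member, TGFB1, beside 2.98% of all entries. It was also the 1 member that DESeq2 called, beside 5.35%, and 4 members were at an unadjusted p under 0.05, beside 12.2%. TGF-β against IL-6 gave 0 of the 10, beside 0.0783% of all entries, with 4 at an unadjusted p under 0.05, beside 7.5%, and 0 by DESeq2, beside 1.7%. The first 3 comparisons share the vehicle libraries.

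**Figure D1:**
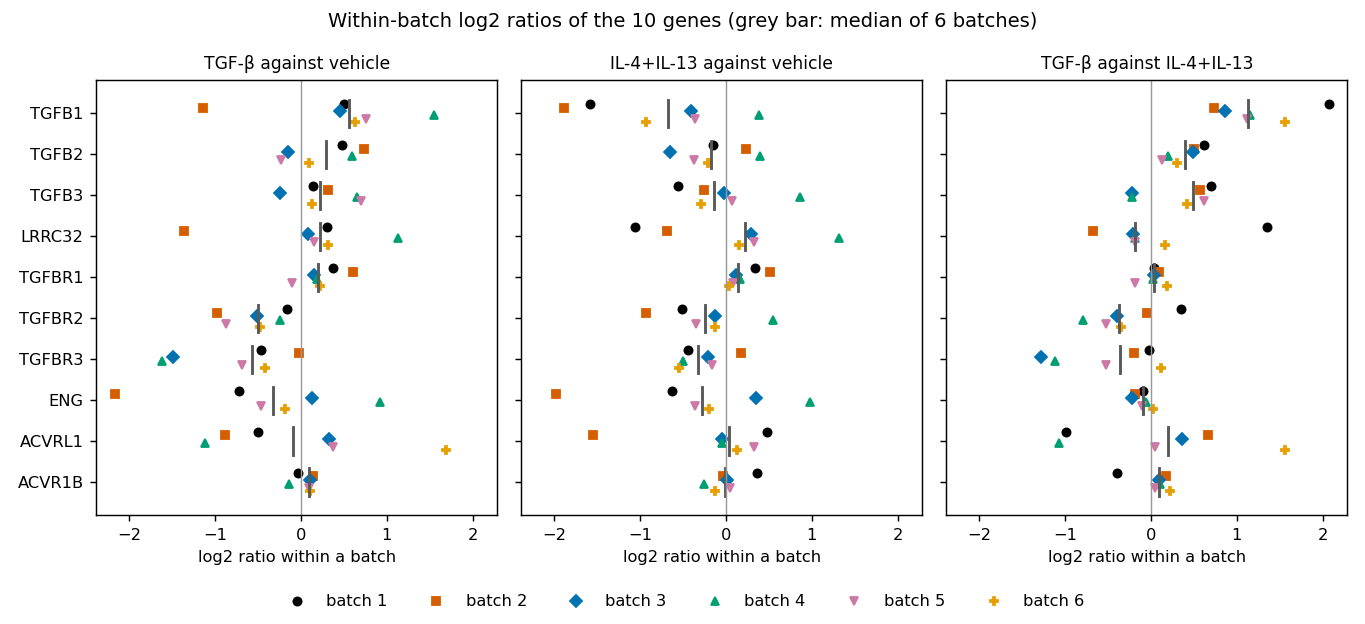
Log2 ratio of CPM between the 2 groups of a comparison in each of 6 batches (horizontal axis) for the 10 genes (rows), with 1 symbol per batch and a grey bar at the median. TGFBR2 and TGFBR3 lie below 0 in all 6 batches under TGF-β against vehicle, and TGFB1 lies above 0 in all 6 under TGF-β against IL-4+IL-13.

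TGFB1 was the ligand gene that separated the cytokine groups. TGFB1 (GRCh38.p14, chr19:41330323-41353922), the most widely expressed TGF-β isoform, was lowest under IL-4+IL-13. In vehicle cultures its level was between 11.6 and 49.3 CPM, with a median of 25.6 CPM (6 libraries). Under TGF-β it was between 13.5 and 69.6 CPM, with a median of 40.2 CPM. The IL-4+IL-13 libraries had 6.09 to 24.4 CPM (median 16.5), and the IL-6 libraries 7.59 to 34.04 CPM (median 28.6). The groups overlapped, and batch accounted for 54.7% of the variance of log2 CPM. The order of the batches differed between groups: batch 4 had 18.6 CPM in vehicle and the highest IL-4+IL-13 level, 24.4 CPM. Within a batch, the TGF-β culture exceeded the IL-4+IL-13 culture in 6 of 6 batches, by log2 ratios of 0.74 to 2.08, and 4.29% of all entries were higher in 6 of 6 batches in this comparison. The log2 fold change was 1.25 ± 0.28 (SE, n = 6 batches), which passed edgeR's test with an adjusted p of 0.016, beside 1.08% of all entries called higher. DESeq2 and limma-voom also called it, with adjusted p of 0.00025 and 0.003. The edgeR call was lost without batch 1 (adjusted p = 0.100), batch 3 (0.058), batch 5 (0.056) or batch 6 (0.089), and without the batch block (0.686), while the log2 fold change stayed between 1.09 and 1.35 in the fits that left out a batch or the vehicle library of batch 2.

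Against vehicle, neither treatment gave a call for TGFB1. The log2 fold change under TGF-β was 0.38 ± 0.28 (SE, adjusted p = 0.882 by edgeR), with log2 ratios of 0.46 to 1.55 in 5 of 6 batches and -1.14 in batch 2. In that batch the vehicle library had 29.8 CPM, above the 13.5, 8.08 and 7.59 CPM measured with TGF-β, with IL-4+IL-13 and with IL-6. Without the vehicle library of batch 2 the log2 fold change was 0.72 and edgeR's adjusted p was 0.168. The ratio of 1.55 came from batch 4, whose vehicle library was closest to batch 2. Without batch 4 the log2 fold change was 0.19 (edgeR adjusted p = 0.879). Under IL-4+IL-13 the log2 fold change was -0.87 ± 0.28 (SE, adjusted p = 0.271), with lower levels in 5 of 6 batches and a ratio of 0.39 in batch 4. Batch 2 had the lowest ratio, -1.88, and without its vehicle library the log2 fold change was -0.50 (adjusted p = 0.555 by edgeR). TGF-β cultures also exceeded IL-6 cultures in 6 of 6 batches, by log2 ratios of 0.11 to 1.03, with a log2 fold change of 0.66 ± 0.27 (SE, edgeR adjusted p = 0.582). In that comparison 3.6% of all entries were higher in 6 of 6 batches.

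Markers of other cell types also differed in this comparison. The summed level of the 10 fibroblast and mesenchymal markers was between 4240 and 13499 CPM under TGF-β and between 2717 and 6509 CPM with IL-4+IL-13, and it was higher in the TGF-β culture in 6 of 6 batches (median log2 ratio 0.49). COL1A1 was the only one of these 10 that edgeR called (log2 fold change 1.31, adjusted p = 0.007). The other 9, none of them at 0, had log2 fold changes of -0.30 (TWIST1) to 0.39 (LUM), with 0.07 for COL1A2, the partner chain of COL1A1. The 8 Schwann cell and satellite glia markers summed to 95.4 to 199 CPM under TGF-β and 63.96 to 120 CPM with IL-4+IL-13, higher in 6 of 6 batches. The 8 endothelial markers summed to 27.1 to 79.5 CPM and 70.7 to 175 CPM, lower in 6 of 6 batches, with KDR called (-1.30). The other endothelial markers were not called by edgeR and had log2 fold changes of -1.88 (CLDN5) to 0.91 (TIE1). The part of such cells in the TGFB1 difference was not tested.

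**Figure D2:**
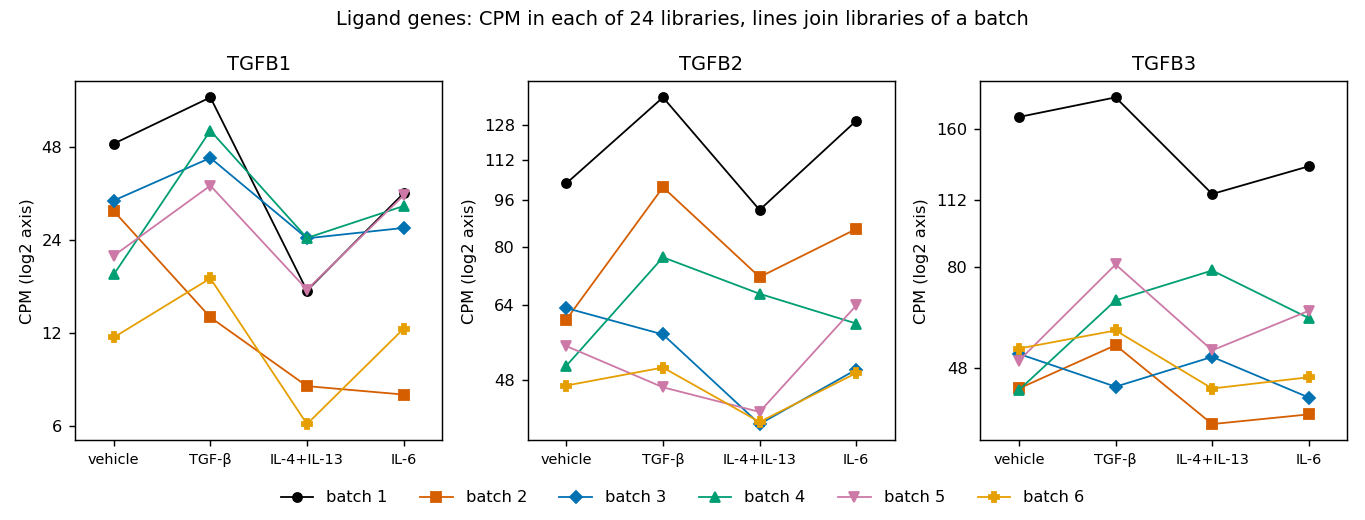
CPM (log2 axis) of TGFB1, TGFB2 and TGFB3 in the 24 libraries by group, with lines joining the libraries of a batch. TGFB1 is lower for IL-4+IL-13 than for TGF-β on each of the 6 lines, and batch 1 is the highest line for TGFB2 and TGFB3.

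TGFB2 and TGFB3 differed less between the groups. TGFB2 (chr1:218345336-218444619), the isoform that depends most on betaglycan for receptor binding, was between 46.9 and 102 CPM in vehicle cultures, with a median of 57.6 CPM. It was between 46.6 and 142 CPM under TGF-β, with a median of 67.0 CPM, and between 40.5 and 92.3 CPM with IL-4+IL-13 (median 54.6). The IL-6 libraries had 49.3 to 130 CPM, with a median of 61.7 CPM, and all 4 groups overlapped. The TGF-β culture exceeded the IL-4+IL-13 culture in 6 of 6 batches, by log2 ratios of 0.14 to 0.63, but the log2 fold change of 0.38 ± 0.12 (SE, n = 6) did not pass edgeR's test (adjusted p = 0.106). Against vehicle, the log2 fold change of TGFB2 was 0.25 ± 0.12 under TGF-β and -0.13 ± 0.12 with IL-4+IL-13 (SE, edgeR adjusted p = 0.675 and 0.793), and 0.17 and -0.20 without the vehicle library of batch 2.

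TGFB3 (chr14:75958097-75983011), an isoform known from embryonic development and scarless repair, was between 43.1 and 170 CPM in vehicle cultures, with a median of 50.8 CPM. Under TGF-β it was between 43.8 and 188 CPM, with a median of 62.9 CPM. Levels with IL-4+IL-13 were between 36.3 and 116 CPM (median 51.7), and those under IL-6 between 38.1 and 133 CPM, with a median of 53.9 CPM. The highest value of each group was that of batch 1, and without batch 1 the groups lay between 36.3 and 81.0 CPM. For TGF-β against vehicle TGFB3 gave 0.27 ± 0.14 on the log2 scale (SE, edgeR adjusted p = 0.723). The TGF-β library exceeded the IL-6 library in 6 of 6 batches, by log2 ratios of 0.078 to 0.50, with a log2 fold change of 0.32 ± 0.14 (SE, edgeR adjusted p = 0.595).

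As a share of the 3 ligand genes per length, TGFB1 made up 26.2 ± 6.22% in vehicle cultures, 29.4 ± 11.1% under TGF-β, 18.5 ± 8.27% with IL-4+IL-13 and 23.5 ± 9.41% under IL-6 (SD, n = 6 each). The share was lower with IL-4+IL-13 than with vehicle in 6 of 6 batches, with differences of -21.6 to -1.48 percentage points. Batch 2 had the difference of -21.6. TGF-β cultures had a larger TGFB1 share than IL-4+IL-13 cultures in 6 of 6 batches, by 10.9 ± 5.32 percentage points (mean ± SD, range 1.61 to 17.1). Under TGF-β against vehicle the share was higher in 5 of 6 batches, by 3.01 to 13.8 percentage points, with a difference of -19.998 percentage points in batch 2. These shares use the same libraries as the fold changes above and are given as a description.

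LRRC32 (chr11:76657524-76670747), the surface anchor of latent ligand, was low. It was between 5.01 and 12.3 CPM in vehicle cultures (median 6.84), 2.90 and 15.1 CPM under TGF-β (median 9.05), 4.66 and 13.6 CPM under IL-4+IL-13 (median 6.85) and 3.39 and 9.43 CPM under IL-6 (median 7.56). The 4 groups overlapped over most of their range. Its log2 fold change was 0.08 ± 0.25 under TGF-β and 0.04 ± 0.25 with IL-4+IL-13 (SE, edgeR adjusted p = 0.984 and 0.986), and 0.30 and 0.29 without the vehicle library of batch 2.

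The receptors TGFBR2 and TGFBR3 were lower under TGF-β in each batch, and the 2 tests differed on whether to call them. TGFBR2 (chr3:30606356-30694142), the type II receptor that binds the ligand, was between 16.2 and 32.3 CPM in vehicle cultures, with a median of 22.1 CPM. Under TGF-β it was between 10.1 and 28.8 CPM, with a median of 14.5 CPM. It had 10.4 to 24.6 CPM with IL-4+IL-13 (median 21.7) and 10.4 to 28.1 CPM under IL-6, with a median of 20.1 CPM. The groups overlapped, and in each batch the TGF-β library lay below the vehicle library, by log2 ratios of -0.98 to -0.16. In this comparison 2.62% of all entries were lower in 6 of 6 batches. The log2 fold change of TGFBR2 was -0.55 ± 0.15 (SE, n = 6 batches), with an adjusted p of 0.159 by edgeR, 0.040 by DESeq2 and 0.120 by limma-voom. Without the vehicle library of batch 2, where TGFBR2 was at 19.97 CPM against 10.1 to 10.4 CPM in the other libraries of that batch, edgeR's adjusted p was 0.219. A further entry, LOC105377015, overlaps the TGFBR2 locus, with 45 counts in all over the 24 libraries.

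TGFBR3 (chr1:91680343-91906002), the betaglycan co-receptor, was between 5.28 and 26.6 CPM in vehicle cultures, with a median of 11.3 CPM. Under TGF-β it was between 1.86 and 19.3 CPM, with a median of 7.57 CPM. Under IL-4+IL-13 it was between 4.56 and 19.6 CPM (median 8.92), and under IL-6 between 5.87 and 18.7 CPM (median 10.8). The groups overlapped, with batch 1 at the top of each. The TGF-β library was below the vehicle library in 6 of 6 batches, by a log2 ratio of only -0.02 in batch 2 and by -1.49 and -1.61 in batches 3 and 4. In batch 3 the level was 1.86 CPM under TGF-β and 5.28 CPM under vehicle, and in batch 4 it was 3.08 CPM and 9.48 CPM. The log2 fold change was -0.71 ± 0.19 (SE, n = 6 batches), with an adjusted p of 0.132 by edgeR, 0.014 by DESeq2 and 0.042 by limma-voom. Without batch 2 edgeR's adjusted p was 0.068, and without its vehicle library 0.082. Without batch 4, whose vehicle library was closest to batch 2, the log2 fold change was -0.56 (edgeR adjusted p = 0.335). TGFBR3 had log2 fold changes of -0.28 ± 0.18 under IL-4+IL-13 and -0.09 ± 0.18 under IL-6 against vehicle (SE, edgeR adjusted p = 0.682 and 0.948). Against IL-4+IL-13 the TGF-β cultures had a log2 fold change of -0.43 ± 0.19 for TGFBR3 and -0.30 ± 0.15 for TGFBR2 (SE, edgeR adjusted p = 0.331 and 0.440), so neither receptor was shown to differ between the 2 cytokine treatments.

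**Figure D3:**
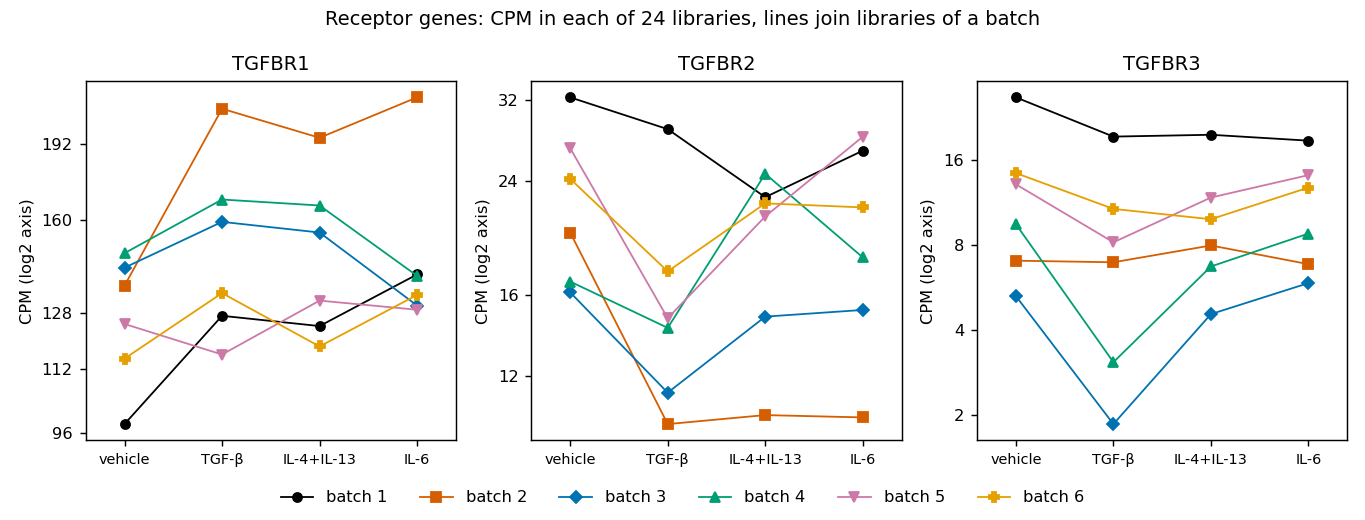
CPM (log2 axis) of TGFBR1, TGFBR2 and TGFBR3 in the 24 libraries by group, with lines joining the libraries of a batch. TGFBR2 and TGFBR3 are lower for TGF-β than for vehicle on each of the 6 lines, and TGFBR1 is higher on 5 of 6.

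TGFBR1 (chr9:99103647-99154192), the type I receptor that signals to SMAD2 and SMAD3, was not lower in these cultures. Its level was between 98.0 and 148 CPM in vehicle cultures, with a median of 131 CPM, and between 116 and 209 CPM under TGF-β, with a median of 147 CPM. Under IL-4+IL-13 it was between 118 and 195 CPM (median 144), and under IL-6 between 129 and 215 CPM (median 137). The log2 fold change was 0.24 ± 0.09 under TGF-β, 0.20 ± 0.09 under IL-4+IL-13 and 0.20 ± 0.09 under IL-6 (SE, edgeR adjusted p = 0.427, 0.482 and 0.850), and none passed the test. Without the vehicle library of batch 2 the 3 values were 0.16, 0.13 and 0.13. The IL-4+IL-13 library was above the vehicle library in 6 of 6 batches, by log2 ratios of 0.04 to 0.51, where 2.28% of all entries were higher in 6 of 6 batches.

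The ratio of the 2 receptors moved the same way in each batch under TGF-β. It is built from the TGFBR1 and TGFBR2 levels given above and serves as a description. The log2 ratio of TGFBR2 to TGFBR1 per length was -2.30 ± 0.61 in vehicle cultures and -3.08 ± 0.78 under TGF-β (SD, n = 6 each). It was lower under TGF-β in 6 of 6 batches, with differences of -1.59 to -0.42 and a mean difference of -0.78 ± 0.42 (SD). Batch 2 had the largest difference, and the other 5 batches had differences of -0.76 to -0.42. In IL-4+IL-13 and IL-6 cultures the log2 ratio was -2.76 ± 0.70 and -2.71 ± 0.78 (SD, n = 6 each), lower than vehicle in 5 of 6 and 3 of 6 batches. Under TGF-β the mesenchymal marker sum was higher than vehicle in 5 of 6 batches (median log2 ratio 0.26). COL1A1 and COL1A2 had the highest mean levels of that list, 2878.5 and 2641.4 CPM, and COL1A1 is also on the TGF-β target list. COL1A1 had a log2 fold change of 0.38. The other genes of the mesenchymal list had -0.60 (COL3A1) to 0.12 (PRRX1), and the list median was -0.04. The smooth muscle and pericyte sum was lower in 4 of 6 batches (-0.21) and the endothelial sum lower in 5 of 6 (-0.44). The part of these cell types in the receptor differences was not tested.

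**Figure D4:**
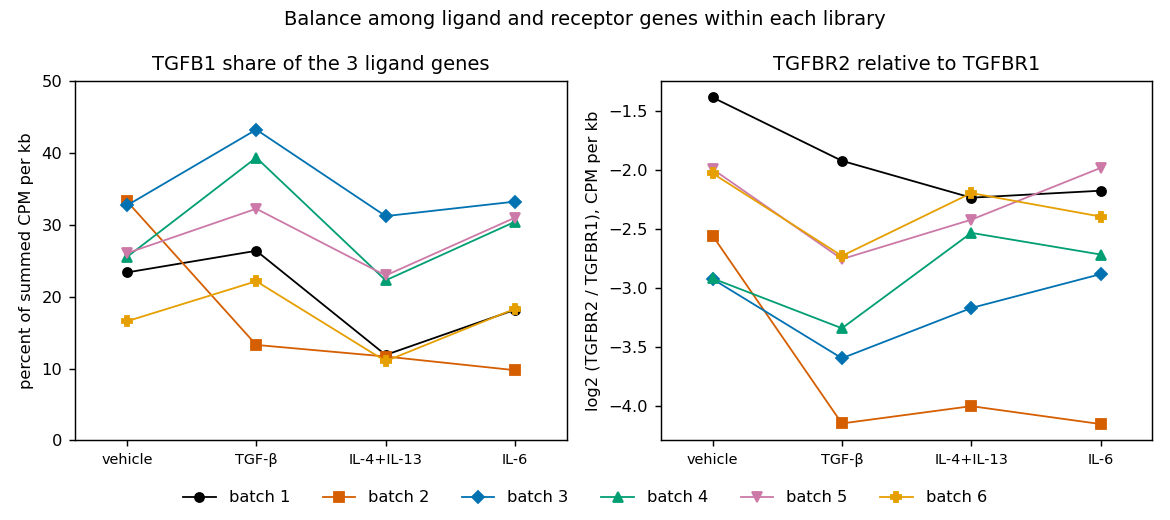
Left, the percentage of TGFB1 in the summed CPM per kb of the 3 ligand genes; right, the log2 ratio of TGFBR2 to TGFBR1 in CPM per kb, both by group with lines joining the libraries of a batch. The TGFBR2 to TGFBR1 ratio is lower for TGF-β than for vehicle on each of the 6 lines, and the TGFB1 share is lower for IL-4+IL-13 than for TGF-β on each of the 6.

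ENG (chr9:127815016-127854658), the endoglin co-receptor, varied widely within each group and overlapped between them. It was between 13.4 and 62.7 CPM in vehicle cultures (median 29.6), 8.15 and 49.9 CPM under TGF-β (median 20.5), 8.65 and 52.0 CPM under IL-4+IL-13 (median 22.4) and 7.77 and 56.8 CPM under IL-6 (median 22.3). The vehicle library of batch 2 was the highest of all 24, at 62.7 CPM, against 13.9, 15.9 and 7.77 CPM in the other libraries of batch 2. Under TGF-β against vehicle the log2 fold change was -0.55 ± 0.36 (SE, edgeR adjusted p = 0.843), and it was -0.03 without the vehicle library of batch 2. Between TGF-β and IL-4+IL-13 cultures, which leave that library out, ENG was within log2 ratios of -0.22 to 0.02 in all 6 batches. The sum of the endothelial markers, most of it from KDR, was lower in the TGF-β cultures in 6 of 6 batches, as given above. The part of endothelial cells in the ENG level was not tested.

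ACVRL1 (chr12:51906944-51923361), the partner of ENG, was between 0.0486 and 0.999 CPM over the 24 libraries, and a treatment effect on it was not detectable at these counts. Its log2 fold changes against vehicle were between -0.18 and 0.15, with standard errors of 0.38 to 0.40, and between 0.11 and 0.45 without the vehicle library of batch 2. ACVR1B (chr12:51951699-51997078) was the steadiest gene across treatments. It was between 54.95 and 115 CPM in vehicle cultures (median 98.2) and between 53.9 and 111 CPM under TGF-β (median 104), and its log2 fold changes against vehicle were 0.05 ± 0.07, 0.00 ± 0.07 and 0.06 ± 0.07 with TGF-β, with IL-4+IL-13 and with IL-6 (SE). Without the vehicle library of batch 2 the value with IL-4+IL-13 was -0.0016. In batch 1 it was 70.9 CPM under IL-4+IL-13 and 72.2 CPM under IL-6, against 54.95 CPM under vehicle and 53.9 CPM under TGF-β, whereas the other batches lay between 80.6 and 115 CPM.

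**Figure D5:**
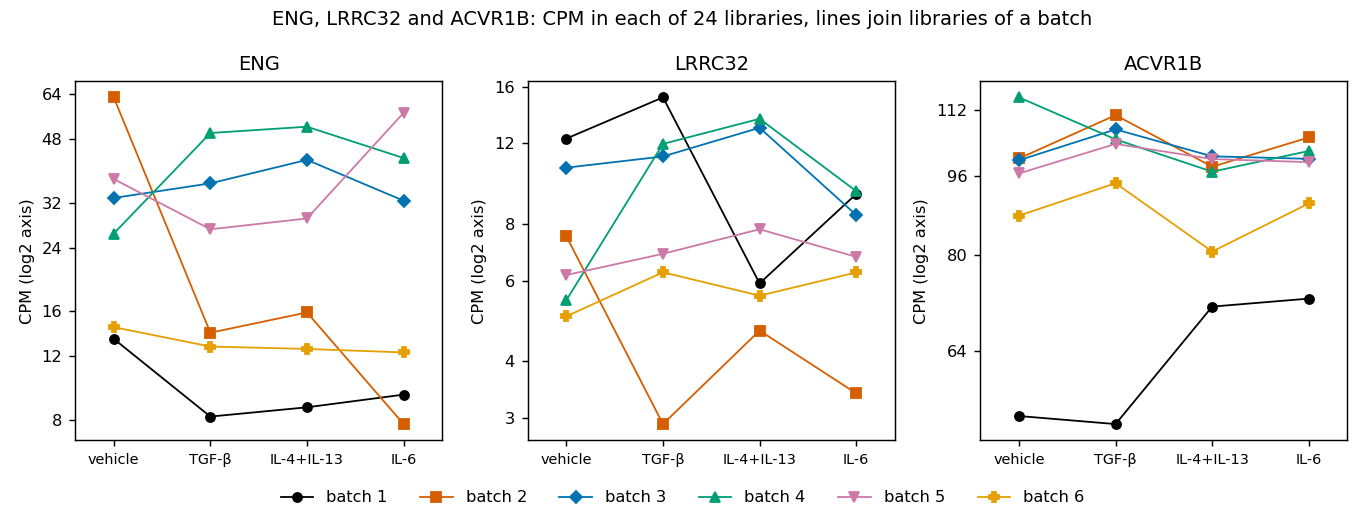
CPM (log2 axis) of ENG, LRRC32 and ACVR1B in the 24 libraries by group, with lines joining the libraries of a batch. The batch 2 vehicle library is the highest for ENG, and batch 1 is the lowest line for ACVR1B.

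The IL-6 cultures gave a further reference. Against vehicle, IL-6 gave log2 fold changes of -0.28 ± 0.28 for TGFB1, 0.16 ± 0.12 for TGFB2 and -0.05 ± 0.14 for TGFB3 (SE, edgeR adjusted p from 0.850 to 0.962). TGFBR2, ENG and LRRC32 had -0.22 ± 0.15, -0.46 ± 0.36 and -0.17 ± 0.25 (SE, edgeR adjusted p from 0.850 to 0.920). Without the vehicle library of batch 2 the values were 0.054 for TGFB1, 0.088 for TGFB2, -0.032 for TGFB3, -0.088 for TGFBR2, -0.16 for TGFBR3, 0.0023 for ENG and 0.073 for LRRC32. Of the members in TGF-β against IL-6, the betaglycan gene TGFBR3 had the smallest p, with a log2 fold change of -0.63 ± 0.19 and a lower level in 4 of 6 batches (SE, adjusted p = 0.273 by edgeR and 0.056 by DESeq2). TGFBR2 had -0.33 ± 0.15 and was lower in 5 of 6 batches (SE, edgeR adjusted p = 0.633). TGFB2, TGFBR1 and LRRC32 had 0.09 ± 0.12, 0.03 ± 0.09 and 0.25 ± 0.25, and ACVRL1, ENG and ACVR1B had -0.24 ± 0.39, -0.09 ± 0.35 and -0.01 ± 0.07 (SE, edgeR adjusted p from 0.880 to 0.995).

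The remaining values for IL-4+IL-13 did not pass edgeR's test. Against vehicle, TGFB3, TGFBR2 and ENG had log2 fold changes of -0.03 ± 0.14, -0.25 ± 0.15 and -0.45 ± 0.36 (SE, edgeR adjusted p = 0.971, 0.654 and 0.751), and -0.014, -0.11 and 0.078 without the vehicle library of batch 2. Directly against IL-4+IL-13, the TGF-β cultures had 0.30 ± 0.14 for TGFB3, 0.03 ± 0.09 for TGFBR1, 0.09 ± 0.38 for ACVRL1, -0.10 ± 0.35 for ENG, 0.04 ± 0.07 for ACVR1B and 0.04 ± 0.25 for LRRC32 (SE, edgeR adjusted p from 0.357 to 0.989).

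Other genes of the pathway were taken from 6 lists written from general knowledge. The lists share some genes, which are counted in each list that holds them. PMEPA1, SKIL and SMAD7 are on both the target and the SMAD list, and LTBP2 on both the target and the latency list. Under TGF-β against vehicle, edgeR called 1 of 30 TGF-β target genes, higher, beside 0.347% of all entries. This was IL11, a cytokine gene induced through SMADs, with a log2 fold change of 1.07 ± 0.17 (SE, adjusted p = 0.012, higher in 6 of 6 batches). Of 22 latency and activation genes 1 was called higher, LTBP4, which binds latent TGF-β, at a log2 fold change of 0.36 ± 0.07 (SE, adjusted p = 0.035, higher in 6 of 6 batches). Among the 8 other superfamily receptors, 21 other superfamily ligands, 21 SMADs and their regulators and 26 ligand traps and co-receptors, edgeR called 0. DESeq2 called 0, 3, 2 and 3 of them, beside 1.72% of all entries. At an unadjusted p under 0.05, 8 target genes were higher and 1 lower, beside 7.29% of all entries. DESeq2 called 4 target genes higher and 0 lower, beside 1.72% of all entries. PMEPA1, a feedback inhibitor, and LOX, which crosslinks collagen, had log2 fold changes of 0.88 ± 0.21 and 0.66 ± 0.16 (SE, edgeR adjusted p = 0.098 and 0.106, DESeq2 0.005 and 0.011). SKIL, a repressor of SMAD signalling, had 0.22 ± 0.06 and was higher in 6 of 6 batches (SE, edgeR adjusted p = 0.177, DESeq2 0.034).

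Other list genes with the smallest p did not pass edgeR's test, though DESeq2 called LEFTY2, INHBA, BMP6, MMP2, NOG, SOSTDC1 and FST (adjusted p = 0.00045, 0.014, 0.0095, 0.033, 0.0074, 0.025 and 0.033). The adjusted p values that follow are edgeR's. The inhibitory SMAD6 had a log2 fold change of -0.48 ± 0.14, and the corepressor SKI had 0.11 ± 0.05 (SE, adjusted p = 0.217 and 0.702). Among the ligands, LEFTY2, an antagonist of Nodal, had 1.45 ± 0.33 at a mean of 1.13 CPM, INHBA, an activin subunit, had 1.33 ± 0.37, BMP6 had 0.61 ± 0.15 and BMP4 had -0.57 ± 0.17 (SE, adjusted p = 0.063, 0.192, 0.107 and 0.215). For the proteases MMP2 and MMP9 the values were 0.59 ± 0.16 and 0.97 ± 0.28, and for ITGB6, an integrin subunit that activates latent TGF-β, 0.68 ± 0.26 (SE, adjusted p = 0.171, 0.209 and 0.480). The BMP traps NOG and SOSTDC1 had -0.87 ± 0.22 and -0.77 ± 0.20, follistatin (FST), which binds activin, had 0.74 ± 0.21, and fibromodulin (FMOD) had 1.03 ± 0.39 (SE, adjusted p = 0.108, 0.144, 0.192 and 0.475). BMPR2, BMPR1A, AMHR2 and ACVR1C had log2 fold changes between -0.52 and 0.16 (adjusted p from 0.739 to 0.821).

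Between the 2 cytokine groups the pathway differed more. Of the 30 target genes, edgeR called 15 higher and 0 lower in the TGF-β cultures, with a median log2 fold change of 0.53, beside 2.98% of all entries called and a median of -0.0048 over all entries. Among them were TGFBI, a matrix protein, at 2.34, IL11 at 1.82 and PMEPA1 at 1.73. Against vehicle, IL-4+IL-13 itself gave 5 called target genes, all lower, beside 0.633% of all entries called, among them TGFBI, LTBP2, CDKN2B and IL11, with log2 fold changes of -1.55, -1.12, -0.68 and -0.74 (edgeR adjusted p = 0.010, 0.0497, 0.014 and 0.0497). LTBP2 was also the 1 latency gene called there, and CD44, a hyaluronan receptor on the list of traps and co-receptors, was called higher at 1.69. COL1A1 and FN1 of this list are also abundant in mesenchymal cells, and COL1A1 is the mesenchymal marker named above. Of the 22 latency and activation genes 8 were called higher and 1 lower, among them the latent TGF-β binding protein genes LTBP2 and LTBP4 (1.59 and 0.52), the integrin genes ITGAV, ITGB1 and ITGB6 (0.73, 0.73 and 1.43) and, lower, the convertase gene PCSK6 (-0.62). The other ligands had 3 called higher (INHBA, BMP6 and LEFTY2, at 1.56, 0.84 and 2.09). The SMADs and regulators had 2 called higher (SKIL and PMEPA1), both also counted among the target genes. The other receptors had 1 called higher (BMPR2, at 0.32). The traps and co-receptors had 0 higher and 2 lower (BAMBI and CD44, at -0.49 and -1.87). Under IL-6 against vehicle, no gene of the 6 lists was called by edgeR or by DESeq2, beside 0% and 0.449% of all entries. At an unadjusted p under 0.05, 2 were higher and 1 lower over the lists, beside 4.77% of all entries. TGF-β against IL-6 gave 1 gene called by edgeR, IL11, beside 0.0783% of all entries. Its log2 fold change was 1.03 ± 0.17 (SE, edgeR adjusted p = 0.025).

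The genes most like each member, other than ACVRL1 with its low counts, were found over the 24 libraries on log2 CPM with the mean of each batch removed, among 14093 annotated entries. TGFB1 was most like COL1A1, with Pearson's r = 0.979, and then CLDN6 and MEDAG (r = 0.964 each). TGFBR2 was most like HSPB7 (r = 0.945) and HSPB8, and TGFBR3 was most like MARVELD3 (r = 0.924), SELENOP and MS4A8. For TGFB2 and TGFB3 the likeness was weaker, with ZMPSTE24 (r = 0.830) and S1PR5 (r = 0.849) first. TGFBR1 was most like TMEM267 (r = 0.905), ENG most like GPX3 (r = 0.930), ACVR1B most like RUNX1T1 (r = 0.913) and LRRC32 most like GGT5 (r = 0.934). Among the members, the highest values were 0.684 for TGFBR2 with ENG and 0.641 for TGFB1 with TGFB3, and the lowest was -0.624 for ACVR1B with LRRC32. The points share batches and libraries, including the vehicle library of batch 2, and the values are given as a description.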

How the data were processed

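The mRNA of 24 cultures was sequenced, 6 batches in each of 4 groups. The deposited values are raw counts per gene entry without normalization, made by the authors' sequencing provider. Per the labels and the paper, reads were checked with FastQC v0.34, trimmed with Trimmomatic 0.30 and aligned to GRCh38.p14. The aligner, counting tool and strandedness are not given in the sources used here.

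Groups and batches were taken from the labels. Counts were fitted with edgeR 4.0.16 (R 4.3.3, TMM normalization, robust quasi-likelihood F test, batch and treatment, Benjamini-Hochberg adjustment) over the 29377 entries with a total count of at least 10, and called at an adjusted p under 0.05. The fit held all 24 libraries, and standard errors were obtained by dividing the fold change (log2, absolute) by the root of F. The batch pairs the cultures because the labels mark a batch as shared, and the study's model also holds batch. Libraries of a batch deviated together from their group means (median r = 0.564, lowest pair -0.047). DESeq2 1.42.0 and limma-voom (limma 3.58.1) were run beside it, with other filters, scalings and left-out batches as alternatives. The fitting was tested on simulated counts.

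Of the 36468 entries, 13161 are NewGene loci and 4886 share a symbol, and the first entry per symbol was used for named genes. CPM is scaled by TMM, and log2 CPM and within-batch ratios use a prior count of 1. Lengths were taken from GENCODE v44 and coordinates and promoters from RefSeq, both on GRCh38. Reads from overlapping genes cannot be told apart by strand. All members are named in each comparison. From each list the text names up to 4 genes with the smallest unadjusted p under TGF-β against vehicle (mean count of at least 10) and, from the other comparisons, called genes chosen after their values were seen. Most alike genes are the 3 with the highest r among annotated entries with a mean count of at least 100. A few genes that these rules select are not reported here but stayed in every fit and list count. Members and lists were chosen with earlier results of these data known. Python 3.11.15 and matplotlib 3.10.9 were used for levels and figures.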

Additional observations from a re-analysis of the deposited data

Results flagged for a closer look

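In each of the 40 sets of 6 libraries (10 genes by 4 groups), the gap between the highest or lowest library and its neighbour was divided by the range of log2 CPM and compared with Dixon's critical value for 6 values. Chance flags about 1 in 20 sets, and 4 passed. The highest vehicle library for TGFB3 was that of batch 1 (ratio 0.848), at 170 CPM and 6038 counts. For TGFBR1 the highest IL-6 library was that of batch 2 (ratio 0.834), at 215 CPM and 6969 counts. ACVR1B had its lowest vehicle library in batch 1 (ratio 0.629), at 54.95 CPM and 1948 counts, and its lowest TGF-β library also in batch 1 (ratio 0.780), at 53.9 CPM and 1766 counts. Of the 4 sets that passed, 3 stand apart through batch 1.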

How the results depend on the processing

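Of 730 values of the 10 genes under alternatives, 679 kept their direction and side of the threshold. TGFB1 between TGF-β and IL-4+IL-13 lost its call in 5, and TGFBR2 (DESeq2) and TGFBR3 (DESeq2, limma-voom) under TGF-β gained one in 3, as given above. In 43 the sign changed, with sizes up to 0.217, none from a called value, and the cause was not tested. Log2 fold changes without one batch, or without the vehicle library of batch 2, ranged as follows where the sign changed. Under TGF-β against vehicle they were -0.39 to 0.22 for ACVRL1 and -0.085 to 0.37 for LRRC32. For IL-4+IL-13 against vehicle they were -0.21 to 0.074 for TGFB3, -0.32 to 0.18 for ACVRL1, -0.69 to 0.078 for ENG, -0.065 to 0.061 for ACVR1B and -0.18 to 0.29 for LRRC32. For IL-6 they were -0.47 to 0.10 for TGFB1, -0.15 to 0.015 for TGFB3, -0.063 to 0.45 for ACVRL1, -0.73 to 0.10 for ENG, -0.0065 to 0.11 for ACVR1B and -0.31 to 0.073 for LRRC32. For TGF-β against IL-4+IL-13 they were -0.0056 to 0.086 for TGFBR1, -0.18 to 0.36 for ACVRL1, -0.0027 to 0.12 for ACVR1B and -0.20 to 0.14 for LRRC32, and for TGF-β against IL-6 -0.012 to 0.075 for TGFBR1, -0.18 to 0.17 for ENG and -0.036 to 0.065 for ACVR1B. With limma-voom, ACVR1B under IL-4+IL-13 was -0.0010 and ACVRL1 between the 2 cytokine groups -0.027. Without the batch block, ACVR1B under IL-4+IL-13 was -0.019, ACVRL1 under IL-6 -0.033, ACVRL1 between the 2 cytokine groups -0.072 and ACVR1B for TGF-β against IL-6 0.015.

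The counts of called entries moved more. TGF-β against vehicle gave 102, with 504 by DESeq2, 190 by limma-voom, 0 with no replicate block, 12 without the IL-6 libraries, 42 beyond a log2 fold change of 1, and 1 (without batch 3 or batch 5) to 133 (without batch 2) when a batch or that vehicle library was left out. IL-4+IL-13 against vehicle gave 186, with 574, 309, 13, 93, 109 and 76 to 234 in the same order. IL-6 against vehicle gave 0, with 132 by DESeq2. TGF-β against IL-4+IL-13 gave 874, with 1572 by DESeq2, 51 with no replicate block, 524 without the IL-6 libraries, 347 beyond a log2 fold change of 1 and 390 to 1443 with a batch or library left out. TGF-β against IL-6 gave 23, with 500 by DESeq2, 127 by limma-voom, 14 with no filter, 54 with edgeR's filterByExpr, 0 with no replicate block, 9 beyond a log2 fold change of 1 and 1 to 164 with a batch or library left out. ACVRL1, with 2 to 37 counts per library, is limited by depth.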
